A study of Sus scrofa with 60 samples.

Results

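FASN, SCD and PNPLA3 were followed in porcine liver through 1 prenatal and 3 postnatal stages. The members were taken as all probe sets of the Affymetrix porcine array whose single gene symbol in the platform annotation is FASN, SCD or PNPLA3. No probe set of these genes was left out for its values, but the genes were chosen with earlier results of these data known. This gave 3 of the 6765 genes named on the array and 6 of its 23999 non-control probe sets, of which 4 target FASN, 1 (Ssc.16159.1.S1_at) targets SCD and 1 (Ssc.9340.1.A1_at) targets PNPLA3. All 60 arrays came from German Landrace offspring whose mothers received the adequate protein (AP) diet during gestation, with 15 fetuses at 94 days post conception (dpc), 15 piglets at 1 day post natum (dpn), 14 piglets at 28 dpn and 16 pigs at 188 dpn. Offspring of mothers on the high protein diet were not analysed here.

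Each array held the liver RNA of a single animal, and the animals of a stage descended from 8 gilts. Littermates were spread over the 3 postnatal stages as well, so that sibs occur both within and between these stages. Fetuses were obtained by Caesarean section in a separate experiment, and experiment and stage cannot be told apart for 94 dpc. Newborn piglets were sampled on the second day of life, with the lightest and the heaviest sib taken at 94 dpc and 1 dpn. Later pigs had been cross-fostered, males were castrated, and animals at 28 and 188 dpn were killed after an overnight fast. Feeding state and age therefore cannot be told apart where either of these stages is compared with 94 dpc or 1 dpn, whereas both stages of the comparison of 28 with 188 dpn shared the fast. Litter, sex and weight of the single animals are not given in the labels used here, so that p-values measure the spread between animals without regard to sibs.

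De novo fatty acid synthesis starts from acetyl-CoA in the cytosol. Fatty acid synthase, encoded by FASN, joins acetyl and malonyl units into palmitate at the expense of NADPH, and stearoyl-CoA desaturase, encoded by SCD, places a double bond in the saturated product, giving oleate and palmitoleate for triglycerides and phospholipids. PNPLA3 is a lipid droplet protein of the patatin-like phospholipase family that acts on acylglycerols and retinyl esters, and its transcription is known to be raised with the lipogenic genes by SREBP-1c after feeding. In pigs the main site of fatty acid synthesis is adipose tissue rather than liver.

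Values are given as log2 of the deposited intensity plus 16, and changes are differences of stage means on this scale with their standard error. Levels of different probe sets are not set against each other, since probe brightness differs. For FASN the brightest probe set, Ssc.18175.1.A1_at, stands for the gene and the other 3 are described beside it. The 10 hepatocyte markers examined, among them ALB and APOA1, were above the highest Tag control (a probe set with no porcine target) at every stage. In bulk liver RNA, fewer cells of a type and less RNA per cell cannot be told apart. Although each array had been scaled to the same trimmed mean of about 500, the array median on this scale declined with age, through 7.54, 7.37, 7.05 and 6.99 in the 4 stages, and changes are to be read beside this shift.

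FASN was high before birth, low in the newborn and the suckling piglet, and high again in the adult. Its level at 94 dpc ran from 11.61 to 13.10 with a median of 12.66. At 1 dpn it ran from 9.37 to 11.91 with a median of 10.66. At 28 dpn it ran from 9.75 to 12.59 with a median of 10.92. Only the brightest newborn and the 2 brightest piglets at 28 dpn reached the range of the fetuses. At 188 dpn FASN ran from 10.23 to 13.97 with a median of 12.34, so that the adults covered the whole range of the fetuses and extended beyond it on both sides.

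SCD behaved alike around birth but did not regain its fetal level. The 15 fetuses lay close together, between 14.46 and 15.27 with a median of 14.96. Newborn piglets ran from 11.05 to 13.57 with a median of 11.85, and piglets at 28 dpn from 10.15 to 13.14 with a median of 11.21. At both stages the brightest piglet stayed below the dimmest fetus (18.3% of 13237 probe sets fell without overlap between 94 dpc and 28 dpn). Adults ran from 10.36 to 14.55 with a median of 13.03, and only the 2 brightest adults, both at 14.55, entered the fetal range.

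PNPLA3 was expressed clearly in the fetus and was much dimmer at every later stage. Its fetal levels ran from 9.63 to 10.77 with a median of 10.38. At 1 dpn the levels ran from 4.40 to 8.68 with a median of 6.21, and 9 of 15 piglets were at or below 6.29, the highest mean of a Tag control at that stage. At 28 dpn they ran from 5.50 to 7.65 with a median of 6.63, with 1 of 14 piglets at or below the Tag controls (highest mean 5.73). Every newborn and every piglet at 28 dpn lay below every fetus. Adults ran from 4.57 to 9.71 with a median of 7.16, with 2 of 16 at or below the Tag controls (highest mean 5.84) and 1 within the fetal range.

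**Figure D1:**
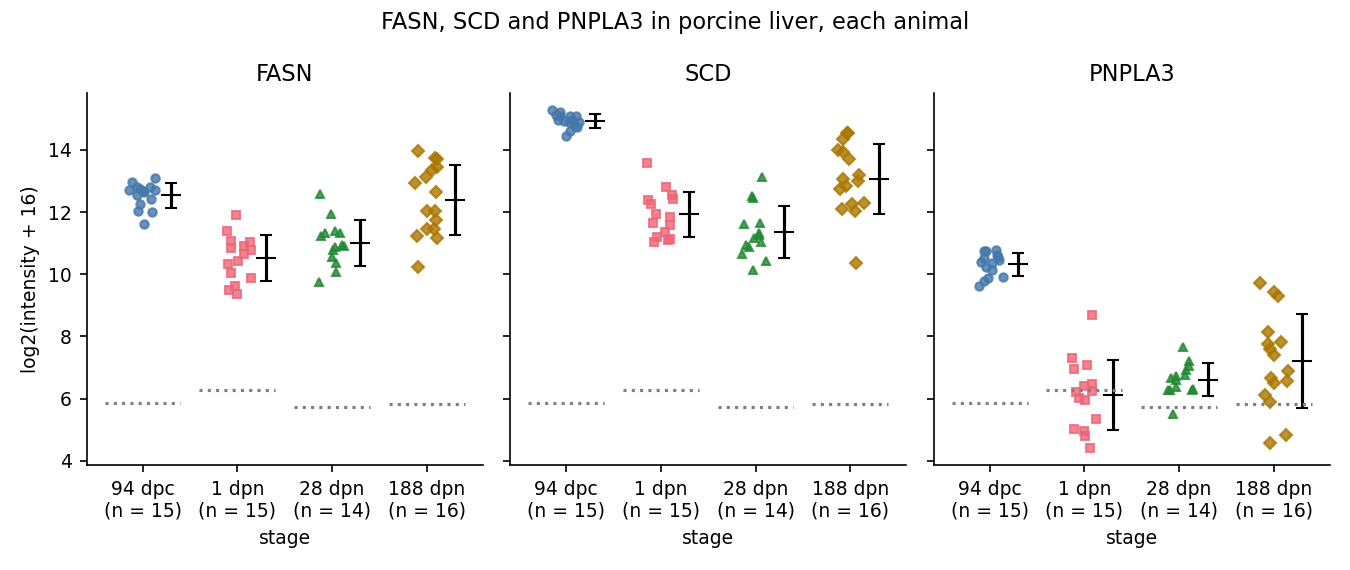
Each point is the liver of 1 animal, plotted as log2(intensity + 16) against ontogenetic stage for FASN, SCD and PNPLA3 (bar, mean and SD; dotted line, highest mean of a Tag control). SCD and PNPLA3 of all newborn piglets lie below those of all fetuses, whereas FASN of the adults covers the fetal range.

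In a limma F-test over the 4 stages 93.2% of 13844 probe sets were called, among them FASN (adjusted p = 1.88e-10), SCD (adjusted p = 2.16e-17) and PNPLA3 (adjusted p = 1.09e-16). From fetus to newborn, termed period I, all 3 genes fell. FASN fell by 2.02 ± 0.20 (4.04-fold, limma adjusted p = 3.75e-10), SCD fell by 3.02 ± 0.19 (8.09-fold, adjusted p = 5.85e-15) and PNPLA3 fell by 4.19 ± 0.29 (18.3-fold, adjusted p = 5.08e-14). The value of PNPLA3 depends on the number added before log2, since most newborns were at background, and was -3.40 with 64 and -4.70 with 1 in place of 16. Of the 12771 probe sets tested in this period 41.1% fell at an adjusted p below 0.05 (33.3% with quantile normalization and 29.2% with median centring), so that a fall as such was common, and 5.53% fell without overlap of the animals, as SCD and PNPLA3 did. A larger fall was seen in 0.877% of the probe sets for FASN, 0.18% for SCD and 0.0313% for PNPLA3. With FASN read from its brightest probe set, the 3 falls differed in size beyond the spread of the animals. That spread does not cover differences between probe sets of the same gene. The FASN probe sets Ssc.25076.1.A1_at and Ssc.25076.2.S1_at fell by 1.07 and 1.04, and the dim Ssc.16368.1.S1_at differed by 0.20. For this, the difference between 2 genes was taken in each animal, and its mean was compared between the different animals of the 2 stages. SCD fell by 1.00 ± 0.17 more than FASN (two-sided permutation test, p = 1e-05, adjusted p = 4.5e-05 over 9 comparisons). PNPLA3 fell by 2.18 ± 0.21 more than FASN (permutation p = 1e-05, adjusted p = 4.5e-05) and by 1.17 ± 0.24 more than SCD (permutation p = 8e-05, adjusted p = 0.00024). With 64 added the last difference was -0.40 ± 0.18 (permutation p adjusted over 9 = 0.0457) and that of PNPLA3 and FASN -1.42 ± 0.16, and with 1 added they were -1.68 ± 0.33 and -2.67 ± 0.30. With quantile normalization the changes were -2.27 for FASN, -2.76 for SCD and -4.27 for PNPLA3, so that FASN and SCD lay closer. The differences between genes were not tested under that setting. The value of 1e-05 is the smallest that 100000 permutations can give.

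Between 1 and 28 dpn, termed period II, the genes parted when FASN was read from its brightest probe set. FASN differed by 0.48 ± 0.26 (adjusted p = 0.0969) and SCD by -0.55 ± 0.28 (adjusted p = 0.0766), and neither passed the limma test, in which 28.5% of 12976 probe sets rose and 39% fell. With median centring 45.7% rose and 23.6% fell, and with quantile normalization 35.7% and 32.2%. PNPLA3 was too dim for the test in this period, with means of 6.12 and 6.61. The difference between genes passed where the single changes did not: SCD changed by 1.03 ± 0.26 less than FASN on the log2 scale (-1.03, permutation p = 0.00065, adjusted p = 0.00117), and PNPLA3 changed by 1.04 ± 0.31 more than SCD (permutation p = 0.00252, adjusted p = 0.00378). The changes of PNPLA3 and FASN differed by 0.01 ± 0.26 (permutation p = 0.971, adjusted p = 0.971). The differences that involve FASN were not computed with its other probe sets. Of these, Ssc.25076.1.A1_at changed by 0.11, Ssc.25076.2.S1_at by -0.49 and the dim Ssc.16368.1.S1_at by -0.79, beside -0.55 for SCD. With each array centred on its median the change of FASN was 0.79 ± 0.27 (adjusted p = 0.0101), and with quantile normalization that of SCD was -0.67 ± 0.28 (adjusted p = 0.0325), so that the calls of this period depend on the scaling.

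Between 28 and 188 dpn, termed period III, FASN and SCD rose. FASN gained 1.39 ± 0.33 (2.62-fold, adjusted p = 0.00106) and SCD gained 1.69 ± 0.34 (3.22-fold, adjusted p = 0.000206), whereas the difference of 0.59 ± 0.40 in PNPLA3 did not pass the test (adjusted p = 0.246). A rise was called in 15.5% of 12568 probe sets (20.2% with median centring), and a rise of at least 2-fold in 1.23%. Animals of both stages overlapped in each gene. The gain of PNPLA3 was 0.80 ± 0.28 smaller than that of FASN (-0.80, permutation p = 0.00876, adjusted p = 0.0113) and 1.10 ± 0.28 smaller than that of SCD (-1.10, permutation p = 0.00027, adjusted p = 0.000607). The gains of FASN and SCD differed by 0.29 ± 0.24 (permutation p = 0.204, adjusted p = 0.23).

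The comparisons across longer intervals share their animals with those above. Adult FASN differed from fetal FASN by -0.14 ± 0.29 (adjusted p = 0.651), a difference whose sign turned with the scaling, to 0.40 ± 0.29 with median centring (adjusted p = 0.199) against -0.55 ± 0.27 with quantile normalization (adjusted p = 0.0613), while SCD was lower by 1.88 ± 0.28 in the adult (-1.88, 3.68-fold, adjusted p = 2.13e-07) and PNPLA3 by 3.11 ± 0.38 (-3.11, 8.64-fold, adjusted p = 3.66e-09). A fall was called in 53.4% of the probe sets tested between these stages, and in 32.7% with median centring. From newborn to adult FASN gained 1.87 ± 0.32 (adjusted p = 4.13e-06), SCD gained 1.14 ± 0.32 (adjusted p = 0.00215) and PNPLA3 gained 1.08 ± 0.45 (adjusted p = 0.0313), beside 28.8% of probe sets with a rise (46.3% with median centring). With the log2 actin 3′/5′ ratio as covariate, which rose from 1.76 to 4.01 between these stages, none of the 3 gains passed (adjusted p = 0.269, 0.301 and 0.48). From 94 dpc to 28 dpn, where 51% of probe sets fell (30.8% with median centring), FASN fell by 1.54 ± 0.21, SCD by 3.57 ± 0.21 and PNPLA3 by 3.70 ± 0.16, and the largest adjusted p was 5.81e-08. The order of the stage means was 94 dpc, 188, 28 and 1 dpn for FASN, in which neither the neighbours 94 dpc and 188 dpn nor 28 and 1 dpn differed beyond their spread, and 94 dpc, 188, 1 and 28 dpn for SCD, in which 1 and 28 dpn did not. For PNPLA3 it was 94 dpc, 188, 28 and 1 dpn, in which 94 dpc and 188 dpn were told apart and 188 and 28 dpn were not. The neighbours 28 and 1 dpn were not tested for PNPLA3.

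The other FASN probe sets differed from the brightest in the size of their changes, and in part in their sign. Ssc.25076.1.A1_at fell by 1.07 ± 0.17 in period I (adjusted p = 1.77e-06) and gained 1.21 ± 0.30 in period III (adjusted p = 0.00163). Ssc.25076.2.S1_at fell by 1.04 ± 0.13 (adjusted p = 1.92e-08) and gained 0.97 ± 0.24 (adjusted p = 0.0016). In period II the latter fell by 0.49 ± 0.19 (adjusted p = 0.0247), opposite in sign to the brightest probe set, and its adult level stayed below the fetal level (-0.57 ± 0.19, adjusted p = 0.00704). Both calls were lost with quantile normalization (-0.24, adjusted p = 0.272, and -0.19, adjusted p = 0.364), with median centring (-0.18, adjusted p = 0.427, and -0.02, adjusted p = 0.913) and with the actin ratio as covariate (adjusted p = 0.721 and 0.249). The remaining FASN probe set, Ssc.16368.1.S1_at, had stage means between 6.05 and 6.84 and was too dim to be tested at any stage. At 188 dpn all 3 followed the brightest probe set among animals, with r of 0.976, 0.922 and 0.893, but at 1 dpn the dimmest did not (r = -0.171).

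The spread among the animals of a stage was larger at 188 dpn than at 94 dpc in each gene, with a dip at 28 dpn in PNPLA3. From the youngest to the oldest stage the SD of FASN was 0.40, 0.73, 0.73 and 1.12. That of SCD was 0.23, 0.73, 0.84 and 1.12, and that of PNPLA3 was 0.38, 1.12, 0.52 and 1.51. Among probe sets within 0.5 log2 units of the same mean level at 188 dpn, 0.682% of 440 had a larger SD than FASN, 0 of 328 a larger SD than SCD, and 0.192% of 3645 a larger SD than PNPLA3. At 94 dpc these shares were 7.81% for FASN, 36.3% for SCD and 6.99% for PNPLA3. The mean distance of the animals from the stage median rose in period I for SCD (0.17 to 0.59, permutation p = 0.00029, adjusted p = 0.00261 over 9 tests) and PNPLA3 (0.30 to 0.84, permutation p = 0.00765, adjusted p = 0.0229). For FASN in period I it was 0.29 and 0.59 (permutation p = 0.0375, adjusted p = 0.0563). In period III it rose for FASN (0.53 to 0.97, permutation p = 0.0211, adjusted p = 0.0475) and PNPLA3 (0.38 to 1.20, permutation p = 0.00259, adjusted p = 0.0117), and was 0.62 and 0.86 for SCD (permutation p = 0.31, adjusted p = 0.399). In period II the distance was 0.59 and 0.53 for FASN, 0.59 and 0.62 for SCD, and 0.84 and 0.38 for PNPLA3 (permutation p = 0.743, 0.877 and 0.0364, adjusted p = 0.836, 0.877 and 0.0563). Without the array of each stage that correlated least with the others, the increase of FASN in period III had an adjusted permutation p of 0.151. For PNPLA3 in period I the increase had an adjusted permutation p of 0.201 when 64 in place of 16 was added before log2, which damps low values.

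**Figure D2:**
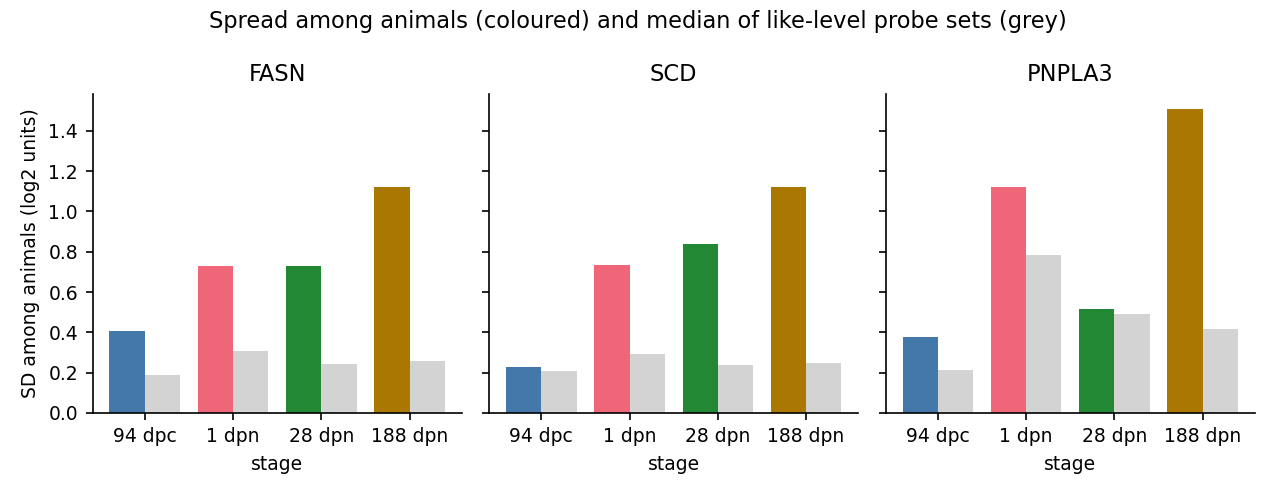
Bars give the SD among animals of a stage in log2 units for FASN, SCD and PNPLA3 (coloured) and, in grey, the median SD of the probe sets of like mean level at that stage. At 188 dpn the SDs of 1.12, 1.12 and 1.51 stand beside medians of 0.26, 0.25 and 0.42.

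In adults the same animals were high or low in all 3 genes. Animal 11 had the lowest FASN (10.23), SCD (10.36) and PNPLA3 (4.57) of the 16 pigs. Animals 9, 13 and 14 held the 3 highest PNPLA3 levels (9.31, 9.71 and 9.43) and the 3 highest SCD levels (14.36, 14.55 and 14.55), with FASN at 13.97, 13.46 and 13.71. Of the 5 highest adults per gene 4 were shared by the 3 genes, and of the 5 lowest 3 were shared. The values between these ends formed a continuous series. Among newborns, animal 1 was the highest in FASN (11.91), SCD (13.57) and PNPLA3 (8.68). At 28 dpn animal 10 was the highest in FASN (12.59) and SCD (13.14), but only 1 of the 5 highest piglets was shared by the 3 genes.

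Across the 12 within-stage relations among the 3 genes all r were positive. At 188 dpn FASN and SCD correlated with r = 0.941 (permutation p = 1e-05, adjusted p = 6e-05) and rho = 0.924 (permutation p = 1e-05, adjusted p = 0.00012). SCD and PNPLA3 did so with r = 0.899 (permutation p = 1e-05, adjusted p = 6e-05) and rho = 0.874 (p = 3e-05, adjusted p = 0.00018). FASN and PNPLA3 had r = 0.84 (permutation p = 2e-05, adjusted p = 8e-05) and rho = 0.806 (p = 0.00038, adjusted p = 0.00152). Without the 2 animals farthest from the median of the x axis gene the 3 values were 0.919, 0.861 and 0.753, so that they do not rest on those 2 alone. The other high and low animals remained in this check. At 188 dpn the array median ran against FASN (r = -0.635, permutation p = 0.00813, adjusted p = 0.293 over 36 relations with array measures), and with arrays centred on their medians r of FASN with SCD was 0.942.

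At 1 dpn FASN and PNPLA3 had r = 0.774 (permutation p = 0.00072, adjusted p = 0.00216) and rho = 0.696 (p = 0.00505, adjusted p = 0.0151), with r = 0.807 without 2 animals. FASN and SCD had r = 0.696 (permutation p = 0.00383, adjusted p = 0.00766) and rho = 0.682 (p = 0.00656, adjusted p = 0.0157), and SCD and PNPLA3 had r = 0.64 (permutation p = 0.00985, adjusted p = 0.0169) and rho = 0.564 (p = 0.0304, adjusted p = 0.0489). Without 2 animals these 2 relations dropped to 0.474 and 0.285 and no longer passed, in a set of 13 animals with a narrower range. Without the least correlated array of the stage r was 0.823 (adjusted permutation p = 0.00066) and 0.703 (adjusted permutation p = 0.00878). The PNPLA3 values of most newborns were near background.

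At 94 dpc FASN and SCD had r = 0.707 (permutation p = 0.00347, adjusted p = 0.00766) and rho = 0.654 (p = 0.0092, adjusted p = 0.0184), and r = 0.633 without 2 animals (adjusted p = 0.0457). FASN and PNPLA3 had r = 0.529 (permutation p = 0.0411, adjusted p = 0.0617) and rho = 0.561 (p = 0.0326, adjusted p = 0.0489), and r = 0.406 without 2 animals. SCD and PNPLA3 had r = 0.27 (permutation p = 0.331, adjusted p = 0.331), rho = 0.279 (p = 0.314, adjusted p = 0.342) and r = 0.314 without 2 animals. Fetal SCD had the narrowest spread of the 3 genes at any stage, with an SD of 0.23 beside a median of 0.21 among 113 probe sets of like level. With quantile normalization its SD was 0.075, and r of SCD with PNPLA3 was 0.632 (adjusted permutation p = 0.0201).

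At 28 dpn no relation passed. FASN and SCD had r = 0.474 (permutation p = 0.0871, adjusted p = 0.116) and rho = 0.222 (p = 0.445, adjusted p = 0.445). FASN and PNPLA3 had r = 0.414 (permutation p = 0.138, adjusted p = 0.166) and rho = 0.385 (p = 0.174, adjusted p = 0.232), and SCD and PNPLA3 had r = 0.334 (permutation p = 0.243, adjusted p = 0.265) and rho = 0.305 (p = 0.286, adjusted p = 0.342). Without 2 animals the r were 0.308, 0.229 and 0.179. The relation of SCD and PNPLA3 turned on 1 animal: without animal 13, whose array correlated least with its stage and which had the highest PNPLA3 and the second lowest SCD, r was 0.676 (permutation p adjusted over the 12 relations = 0.0174).

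**Figure D3:**
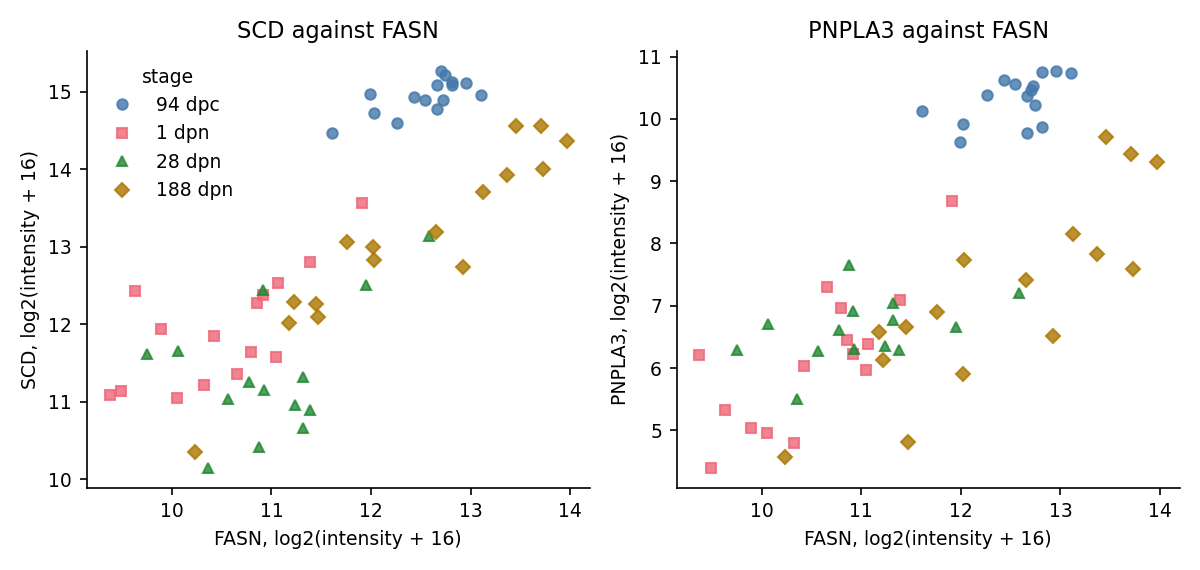
SCD (left) and PNPLA3 (right) of each animal are plotted against FASN, all as log2(intensity + 16), with symbols for the 4 stages. The adults form the longest series, with r of 0.941 and 0.84, and the fetuses lie above the adults of equal FASN.

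**Figure D4:**
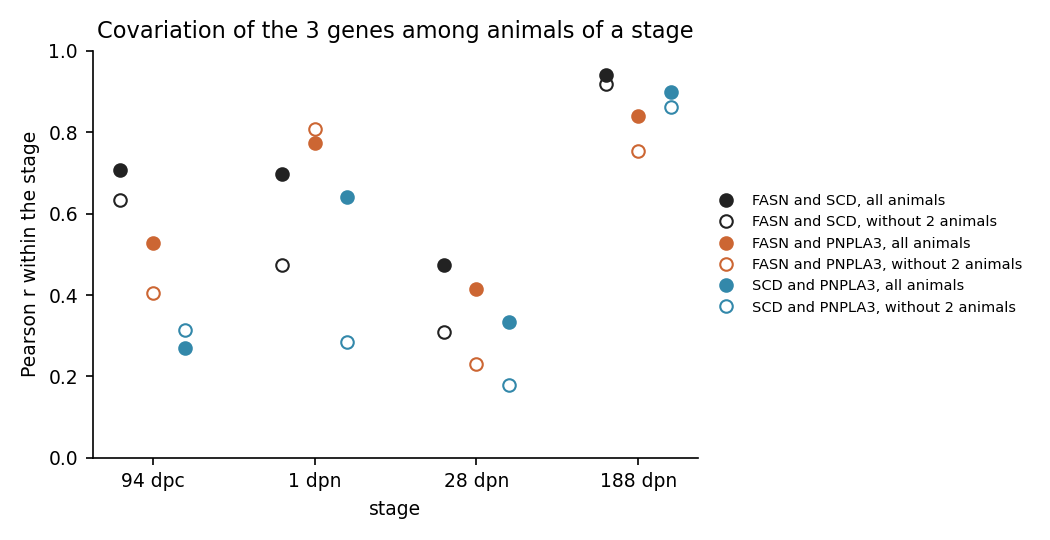
Pearson r among animals of a stage is plotted for the 3 gene pairs with all animals (filled) and without the 2 animals farthest from the median (open). With all animals, the 3 pairs are highest at 188 dpn and lie below 0.5 at 28 dpn. Without 2 animals, FASN and PNPLA3 are highest at 1 dpn (0.807, beside 0.753 at 188 dpn).

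The slopes gave no call of a difference among stages. In a limma model with stage and FASN level over all 60 arrays, SCD rose by 0.78 ± 0.09 log2 units per unit of FASN (adjusted p = 2.03e-09, over 13843 probe sets) and PNPLA3 by 0.94 ± 0.11 (adjusted p = 2.73e-08). PNPLA3 rose by 0.89 ± 0.12 per unit of SCD (adjusted p = 6.81e-07). Slopes of SCD on FASN were 0.40, 0.70, 0.55 and 0.94 from the youngest to the oldest stage, and the test of their difference had an adjusted p of 0.844. Those of PNPLA3 on FASN were 0.49, 1.19, 0.29 and 1.13 (adjusted p = 0.494), and those of PNPLA3 on SCD were 0.45, 0.98, 0.21 and 1.21 (adjusted p = 0.0835). Fitted within a single stage over all probe sets, the slope of SCD on FASN was called at 188 dpn (adjusted p = 6.91e-06), as was that of PNPLA3 on FASN (adjusted p = 0.00324) and of PNPLA3 on SCD (adjusted p = 0.000319). No slope between the 3 genes was called within any other stage alone, where the calls over all probe sets were few. Within 94 dpc, 1 dpn and 28 dpn the model called 0.0168%, 0% and 0.0333% of probe sets for FASN, 0%, 0.00845% and 0% for SCD, and 0.0084%, 0% and 0% for PNPLA3, with 584 to 1944 probe sets at an unadjusted p below 0.05. At 188 dpn these shares were 1.12% for FASN, 0.683% for SCD and 0.108% for PNPLA3. The slopes of all probe sets differed among stages in 0.0722%, 1.6% and 0% of 13843 cases for FASN, SCD and PNPLA3, with 1005, 2352 and 792 at an unadjusted p below 0.05 in limma.

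The gene that followed FASN most closely was ACSS2, which makes acetyl-CoA from acetate in the cytosol. After stage means had been subtracted, r of ACSS2 with FASN was 0.902, the highest of 5490 genes, and it was 0.821, 0.864, 0.93 and 0.921 within the stages from 94 dpc to 188 dpn. SCD (0.77) and PNPLA3 (0.739) came next, followed by ACAT2 (0.677) and FDPS (0.662), enzymes of the mevalonate pathway. At the opposite end stood CPT1A (-0.74), which admits fatty acids into mitochondria for oxidation, ABHD5 (-0.656), the co-activator of triglyceride lipase PNPLA2, and FGL1 (-0.594), a secreted hepatocyte protein. An association within stages refers below to the limma model over all 60 arrays with stage as a factor, and single stages can differ from it. In that model 391 of 13843 probe sets (2.82%) were associated with FASN, 164 in its direction and 227 against it. This balance turned with the scaling, to 132 and 98 with quantile normalization and 393 and 77 with median centring. Without the least correlated array of each stage the count was 229, the array at 188 dpn left out being that of animal 8 with a FASN level of 13.73.

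ACSS2 and CPT1A also stood near the ends of the order for SCD and PNPLA3. For SCD the highest were FASN (0.77), ACSS2 (0.72), PNPLA3 (0.711), TSKU (0.599) and NPC1 (0.571), a carrier of cholesterol out of lysosomes, and the lowest were CPT1A (-0.613), PRPS2 (-0.564) and HSF2BP (-0.53). TSKU, a secreted hepatic protein, reached r = 0.873 with SCD at 188 dpn but -0.293 at 1 dpn. PRPS2 and HSF2BP ran with SCD at 94 dpc (r = 0.492 and 0.381) and against it at the later stages. For PNPLA3 the highest were FASN (0.739), SCD (0.711), ACSS2 (0.711), C7H14orf1 (0.624) and MSMO1 (0.542), an enzyme of sterol synthesis, and the lowest were DLC1 (-0.502), CPT1A (-0.476) and LDHB (-0.464). The model called 61 probe sets (0.441%) for SCD, 33 of them in its direction (84 of 90 with median centring), and 27 (0.195%) for PNPLA3, 24 of them in its direction. CPT1A was called with SCD (adjusted p = 0.000473) but not with PNPLA3 (adjusted p = 0.0546). Nor did the limma model call DLC1 (adjusted p = 0.0546) or LDHB (adjusted p = 0.0671) with PNPLA3.

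By their course over all 60 arrays, with stage differences kept, FASN was most like ACSS2 (r = 0.951), SCD (0.8), PNPLA3 (0.744), MSMO1 (0.719) and PRDX2 (0.715). SCD was most like PNPLA3 (0.884), then RPS4X (0.824), EEF1D (0.818), ACSS2 (0.814) and FASN (0.8). PNPLA3 was most like SCD (0.884), FECH (0.816), ZNF697 (0.816), LOC100738720 (0.814) and LOC100516606 (0.813). These values describe shared stage courses of arrays that also share a stage, and carry no test. FECH completes haem synthesis. The 6 erythroid markers tested in period I all fell with the 3 genes, beside 1853 falls of 5206 genes. Their log2 summed intensity was 13.30 to 15.45 in fetuses and 10.46 to 12.33 in newborns, and the part of erythroid cells in the fall was not tested. Within stages no erythroid marker was associated with FASN, SCD or PNPLA3, with r between -0.261 and 0.181.

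Other enzymes of fatty acid synthesis went either way in period I. Of 14 further enzymes and carriers tested, 5 rose and 3 fell, with a median change of -0.01, beside 1551 rises and 1853 falls among 5206 genes with a median of -0.06 (of all probe sets tested 23.9% rose). With median centring the counts were 6 rises and 1 fall, beside 2062 rises and 1283 falls among all genes. MID1IP1, which promotes polymerization of acetyl-CoA carboxylase, fell by 1.93 ± 0.15 (adjusted p = 7.24e-13). ELOVL6, which lengthens palmitate to stearate, rose by 0.52 ± 0.18 (adjusted p = 0.0126), and ACSL5, which activates fatty acids, rose by 1.24 ± 0.10 (adjusted p = 1.23e-12). The desaturase genes FADS1 and FADS2, which serve polyunsaturated fatty acids, differed by -0.23 ± 0.21 (adjusted p = 0.346) and -0.09 ± 0.24 (adjusted p = 0.75). ACACA, the carboxylase that supplies malonyl-CoA, had stage means between 6.39 and 6.93 and was too dim to be tested.

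In period II 5 of these 14 rose and 4 fell (median -0.10, beside 1716 rises and 1905 falls of all genes with a median of -0.03), with FADS2 rising by 0.90 ± 0.26 (adjusted p = 0.00367) and ACSL3 falling by 1.91 ± 0.22 (adjusted p = 6.01e-09). With median centring 7 rose and 1 fell in that period (median 0.21), beside 2707 rises and 1044 falls of all genes (median 0.28). In period III 1 rose and 6 fell (median -0.26), beside 921 rises and 1486 falls of all genes with a median of -0.06 (24.1% of all probe sets tested fell), and with median centring 1144 rises and 1211 falls. The riser was DBI, an acyl-CoA binding protein (0.25 ± 0.08, adjusted p = 0.00863), and the falls included ACSL5 (-0.79 ± 0.11, adjusted p = 1.39e-06) and FADS2 (-0.73 ± 0.24, adjusted p = 0.017). Among animals of a stage, 0 of the 14 were associated with FASN in its direction and 1, ACSL1, against it (r = -0.457, adjusted p = 0.03). FADS1 (r = 0.479, adjusted p = 0.0323) and ACSL3 (r = 0.495, adjusted p = 0.0261) were associated with SCD. The r of ELOVL6 with FASN was -0.123.

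Suppliers of acetyl-CoA and NADPH were mixed as well. ACSS2 fell by 1.74 ± 0.15 in period I (adjusted p = 1.25e-11), rose by 0.45 ± 0.19 in period II (adjusted p = 0.04) and rose by 0.89 ± 0.26 in period III (adjusted p = 0.00693), whereas 5 of the 10 genes of this list rose in period I and ACSS2 was the only fall, beside 1551 rises and 1853 falls of 5206 genes. The rises were those of TALDO1 (0.76), IDH1 (0.68), MDH1 (0.67), TKT (0.49) and SLC25A1 (0.47). In period II ACSS2 and TKT (0.46) rose and 6 of 10 fell, beside 1716 rises and 1905 falls of 5335 genes. With median centring 2 rose and 2 fell, beside 2707 rises and 1044 falls. In period III ACSS2, ME1 and TALDO1 (0.33) rose and 5 of 11 fell, beside 921 rises and 1486 falls of 5255 genes. Malic enzyme ME1 was tested in period III alone and rose by 1.17 ± 0.18 (adjusted p = 5.57e-06). Within stages 5 of 11 were associated with FASN in its direction, beside 1.18% of all probe sets. Besides ACSS2 these were TKT (r = 0.61) and PGD (0.588), enzymes of the pentose phosphate pathway, CS (0.514) and TALDO1 (0.442).

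Among 9 genes of cholesterol synthesis 8 fell in period I (median -1.52), beside 1853 falls of 5206 genes, among them HMGCS1 (-2.35 ± 0.34, adjusted p = 5.14e-07) and ACAT2 (-2.11 ± 0.21, adjusted p = 1.64e-10). In period II FDFT1 (0.65), MSMO1 (1.50) and NSDHL (0.39) rose and 0 fell (median 0.39), beside 1716 rises and 1905 falls of 5335 genes. Under quantile normalization 1 rose, and under median centring 6. In period III SC5D rose (0.97) and NSDHL fell (-0.45), with a median of 0.03, beside 921 rises and 1486 falls of 5255 genes. In the model over all 60 arrays with stage as a factor all 9 were associated with FASN, beside 1.18% of all probe sets associated in the same direction. Their r after subtracting stage means lay between 0.451 and 0.677. Single stages were not alike, and at 94 dpc r with FASN was -0.0919 for MSMO1 and 0.593 for ACAT2. With SCD 3 of 9 were associated (ACAT2, HMGCS1 and FDPS, median r 0.416), beside 0.238% of all probe sets, and with PNPLA3 5 of 9 (MSMO1, FDFT1, HMGCS1, FDPS and ACAT2, median r 0.496), beside 0.173%. The medians of r over all 5490 genes were -0.03 for FASN, -0.04 for SCD and -0.02 for PNPLA3.

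**Figure D5:**
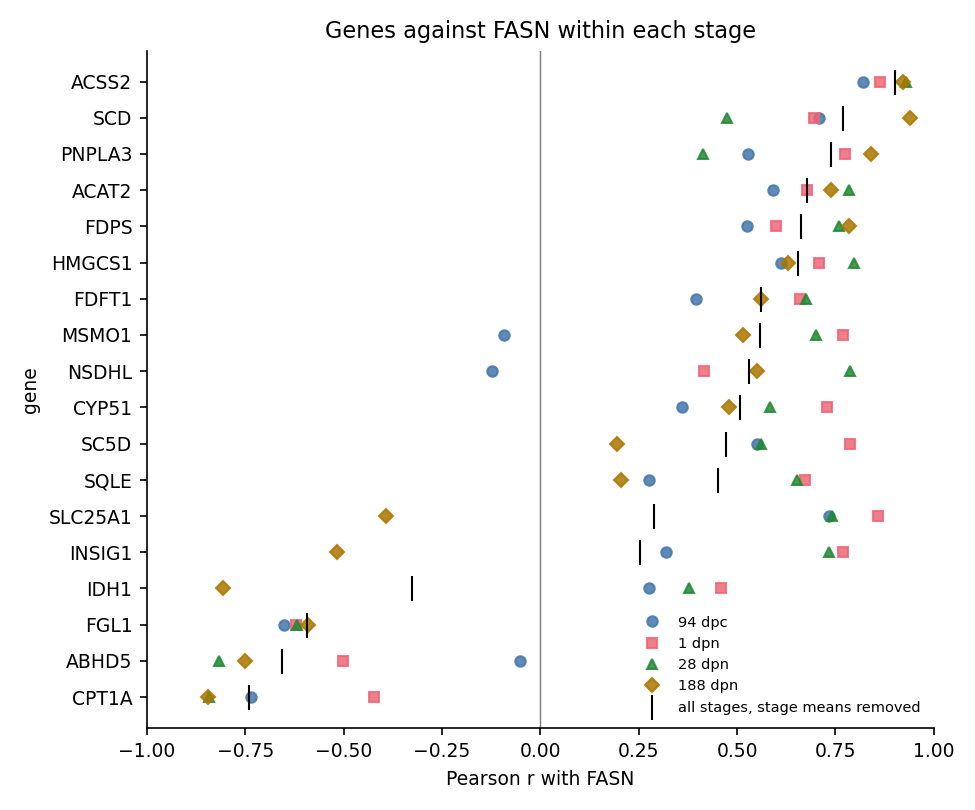
Pearson r with FASN within each stage (symbols) and over all stages after subtracting stage means (black bars) for the 5 highest and 3 lowest genes, the genes of cholesterol synthesis, and SLC25A1, INSIG1 and IDH1. ACSS2 lies at 0.821 or above in all stages, and CPT1A at -0.424 or below.

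Of the regulators of lipogenesis 3 rose and 6 fell among 17 tested in period I (median -0.09), beside 1551 and 1853 of 5206 genes, and 4 rose and 3 fell with median centring (median 0.08). INSIG1, a sterol-regulated retention protein of SREBP, fell by 1.67 ± 0.28 in period I (adjusted p = 5.04e-06) and rose by 0.93 ± 0.25 in period III (adjusted p = 0.00331), as FASN did. LPIN1, a phosphatidate phosphatase and coregulator, fell by 1.28 ± 0.16 (adjusted p = 2.63e-08) and rose by 2.49 ± 0.13 (adjusted p = 4.36e-15) in the same periods. SREBF1, whose product activates FASN and SCD, was dim, with stage means between 6.63 and 7.50, was not tested in period I, and differed by -0.24 ± 0.23 in period III (adjusted p = 0.436). Its r with FASN within stages was 0.137 (adjusted p = 0.599), while that of SREBF2 was 0.479 (adjusted p = 0.0153). INSIG2, a second retention protein of SREBP, ran against FASN (r = -0.407, adjusted p = 0.0492). In period II 8 regulators rose, SREBF2 most (1.39 ± 0.13, adjusted p = 1.88e-10), and 4 fell of 19, beside 1716 rises and 1905 falls of 5335 genes. With median centring 12 rose and 3 fell, beside 2707 rises and 1044 falls. In period III 5 rose and 3 fell of 18, beside 921 rises and 1486 falls of 5255 genes.

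Of the relatives and partners of PNPLA3, PNPLA2, ABHD5 and PLIN2 rose around birth. PNPLA2, the main triglyceride lipase, rose by 1.16 ± 0.14 in period I (adjusted p = 1.13e-08) and by 0.51 ± 0.13 in period III (adjusted p = 0.00162), and its r with PNPLA3 within stages was -0.0993 (adjusted p = 0.869). Its co-activator ABHD5 rose by 1.99 ± 0.14 in period I (adjusted p = 1.64e-13), and the droplet coat gene PLIN2 rose by 1.18 ± 0.23 (adjusted p = 3.76e-05) and then fell by 2.96 ± 0.28 in period II (adjusted p = 1.02e-10). Of 8 genes of lipolysis and lipid droplets other than PNPLA3, 6 rose and LIPC fell in period I (median 1.00), beside 1551 rises and 1853 falls of 5206 genes. After stage means had been subtracted, ABHD5 and PLIN2 ran against FASN (r = -0.656, adjusted p = 1.07e-05, and r = -0.592, adjusted p = 0.000274). From 94 dpc to 188 dpn r was -0.0511, -0.503, -0.817 and -0.752 for ABHD5, and -0.148, -0.253, -0.419 and -0.872 for PLIN2. Both also ran against SCD (r = -0.523, adjusted p = 0.012, and r = -0.504, adjusted p = 0.0201). In period II 4 of 9 rose and 3 fell (all genes 1716 and 1905 of 5335), and in period III PNPLA2 rose and LIPC and PLIN2 fell of 9 (all genes 921 and 1486 of 5255).

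Genes of fasting and fatty acid oxidation rose where FASN, SCD and PNPLA3 fell, 6 of 7 tested in period I with a median of 2.40, beside 1551 rises of 5206 genes with a median of -0.06. CPT1A rose by 2.40 ± 0.15 (adjusted p = 5.05e-15) and fell by 0.73 ± 0.26 in period III (adjusted p = 0.0251), and ANGPTL4, a circulating inhibitor of lipoprotein lipase, rose by 3.88 ± 0.29 in period I (adjusted p = 4.2e-13) and by 1.25 ± 0.17 in period III (adjusted p = 4.98e-07). Among the 7, CPT1A alone was associated with FASN within stages (r = -0.74, adjusted p = 3.43e-08), whereas ANGPTL4 had r = 0.0274 (adjusted p = 0.936). In period II 2 of 7 rose and 4 fell, beside 1716 rises and 1905 falls of 5335 genes, with 2 rises and 2 falls under median centring. In period III 4 of 6 rose and 2 fell, beside 921 rises and 1486 falls of 5255 genes.

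Markers of other cells and of RNA quality were set beside the levels of the 3 genes. Of 3 adipocyte markers tested within stages none was associated with FASN, with r between -0.166 and 0.0249, and none of 8 cholangiocyte and stellate or 5 macrophage markers was. By stage and with age, the log2 summed intensity of the adipocyte markers spanned 10.58 to 11.34, 9.78 to 11.09, 11.36 to 11.89, and 11.25 to 12.52, with 5, 2, 6 and 7 of 8 markers above the Tag controls. The macrophage sum spanned 12.41 to 12.79, 13.33 to 13.96, 13.66 to 14.30, and 12.94 to 14.04 in the same order, and the cholangiocyte and stellate sum from 12.29 to 13.51, 11.91 to 13.79, 11.58 to 13.80 and 11.86 to 13.30. The hepatocyte marker HNF4A was associated with FASN (r = 0.536, adjusted p = 0.00467), and the other 9 were not. Of the 10 hepatocyte markers 2 rose and 1 fell in period I (all genes 1551 and 1853 of 5206). In period II 1 rose and 7 fell (1716 and 1905 of 5335). In period III 6 rose and 0 fell (921 and 1486 of 5255). With quantile normalization the counts were 6 and 2, 3 and 4, and 1 and 1. All genes then gave 1802 and 1555, 1987 and 1668, and 941 and 1309. The part of hepatocytes in the changes of the 3 genes was not tested. The log2 of the 3′/5′ ratio of the actin probe sets, which grows as RNA is degraded, was 2.29 ± 0.34 (SD, n = 15), 1.76 ± 0.31 (n = 15), 3.54 ± 0.46 (n = 14) and 4.01 ± 0.45 (n = 16) from 94 dpc to 188 dpn. Of 36 relations between array measures and the 3 genes within stages, 0 passed adjustment and 3 had an unadjusted permutation p below 0.05. The part of RNA quality in the differences between stages was not tested beyond the fits with this ratio given with the other settings.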

How the data were processed

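The authors deposited linear signal intensities from GCOS 1.1.1 for 60 arrays, each scaled to a trimmed mean of about 500, whereas the methods of the study describe GCRMA values. Intensities were used as log2(intensity + 16). All 60 value columns were matched to a sample, with 0 left over. Of 24123 probe sets, 124 controls were left out. The platform annotation gave 1 gene for 10069, several for 198 and none for 13732, and 6765 genes in all.

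A probe set was tested where at least 50% of the animals of a stage compared exceeded the array median. Pairs of stages were compared with limma 3.58.1 in R 4.3.3 (lmFit, eBayes, Benjamini-Hochberg over all tested), as were associations with a member (stage as factor) and differences of slope. Correlations, differences between members and spread used 100000 two-sided permutations in Python 3.11.15 with NumPy 2.4.6. The number of arrays limits the precision. Scripts were tested on simulated data.

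Named genes were all members, a set of lipogenic genes where measured, up to 3 called rises and 3 falls of largest size per list and period, the 5 highest and 3 lowest genes by r after subtracting stage means, and the 5 highest without. A gene is represented by its brightest probe set. Other genes named were chosen after their values were seen. Members and lists were chosen with earlier results of these data known. Genes with no annotated probe set, such as ACLY and THRSP, and promoter sequences were not analysed here. Alternatives were other additions before log2 (1 or 64), quantile normalization, median centring, other filters, leaving out an array per stage, and the actin ratio as covariate. The fits within a single stage, the slope interactions and the use of probe sets below the filter were added after the data were seen.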

Additional observations from a re-analysis of the deposited data

Results flagged for a closer look

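Among the listed genes, the slope of 3 on FASN differed among the 4 stages in the limma interaction test, which called 10 of 13843 probe sets (0.0722%). These genes were chosen after their values were seen. INSIG1 rose with FASN by 0.46, 1.05 and 0.80 per log2 unit at 94 dpc, 1 dpn and 28 dpn, but changed by -0.30 at 188 dpn (adjusted p = 0.00924). The citrate carrier SLC25A1 had slopes of 0.46, 0.38, 0.32 and -0.12 in the same order (adjusted p = 0.00924). The NADP-dependent isocitrate dehydrogenase IDH1 had slopes of 0.11, 0.13, 0.12 and -0.33 (adjusted p = 0.0111). Within adults r with FASN was -0.518 for INSIG1, -0.392 for SLC25A1 and -0.806 for IDH1.

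Slopes on SCD differed among stages for 222 probe sets (1.6%), among them ACADM (adjusted p = 0.0303), ACADVL (adjusted p = 0.0303), IDH1 (adjusted p = 0.0338) and PDK4 (adjusted p = 0.0464). The interaction test with PNPLA3 called 0 probe sets in limma, and 792 had an unadjusted p below 0.05. Without the 2 animals of each stage farthest from the median of the member, none of these 7 differences passed, with adjusted p of 0.655 for INSIG1, 0.153 for SLC25A1 and IDH1 on FASN, and 0.321 to 0.578 on SCD. With no filter the differences on SCD had adjusted p of 0.0734 for ACADM, 0.0702 for ACADVL, 0.0751 for IDH1 and 0.089 for PDK4.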

How the results depend on the processing

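No paired analysis was possible because the labels give no replicate numbers shared between stages. With the brightest probe sets, every tested change in period I, period III and from 94 dpc to later stages kept its side of the threshold under the other settings, and its direction except for FASN from 94 dpc to 188 dpn, which was not called and was 0.40 with median centring. With the actin ratio as covariate, the gains from 1 to 188 dpn were 1.64 for FASN (adjusted p = 0.269), 1.55 for SCD (adjusted p = 0.301) and 1.54 for PNPLA3 (adjusted p = 0.48), with standard errors of 1.03, 1.03 and 1.44 in place of 0.32, 0.32 and 0.45. This covariate left 3073 calls in place of 8762 in period II and 2701 in place of 9452 from 1 to 188 dpn. In period II FASN passed with median centring (0.79, adjusted p = 0.0101) and SCD with quantile normalization (-0.67, adjusted p = 0.0325). FASN probe set Ssc.25076.2.S1_at gave -0.49 in period II and -0.57 from 94 dpc to 188 dpn, both past the threshold, but not with quantile normalization, median centring or the actin covariate. The dim set Ssc.16368.1.S1_at gave 0.20 in period I, -0.79 in period II, 0.65 in period III (adjusted p = 0.0609) and -0.14 from 1 to 188 dpn. The cause of these differences was not tested.

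Probe sets associated with FASN numbered 230 with quantile normalization, 199 with no filter and 229 without the least correlated array of each stage. Those with SCD numbered 27 and 30 under the first 2 of these settings, and those with PNPLA3 numbered 42 with median centring, 16 with no filter, 47 with a filter in every animal and 41 without the least correlated arrays. The 9 differences between the genes kept their side in the 3 alternatives run for them (1 or 64 added, and without the least correlated arrays), but that of PNPLA3 and SCD in period I ranged from -1.68 to -0.40. None of these alternatives used another FASN probe set or quantile normalization. With the latter, the period I changes of FASN (-2.27) and SCD (-2.76) lay closer than in the main fit.

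Of the 188 dpn correlations none changed its side. At 94 dpc FASN and SCD had r = 0.338 with Ssc.25076.1.A1_at and -0.0394 with Ssc.16368.1.S1_at, FASN and PNPLA3 passed as rho (0.561) and with quantile normalization (0.572), and so did SCD and PNPLA3 with the latter (0.632). At 1 dpn FASN and SCD had r = 0.474 without 2 animals, 0.478 with Ssc.25076.2.S1_at and -0.273 with Ssc.16368.1.S1_at. FASN and PNPLA3 had 0.497 with Ssc.25076.1.A1_at and -0.0539 with Ssc.16368.1.S1_at, and SCD and PNPLA3 had 0.285 without 2 animals. At 28 dpn FASN and PNPLA3 passed with Ssc.25076.1.A1_at (0.631), and SCD and PNPLA3 without the least correlated array (0.676). The difference in spread of PNPLA3 was 0.208 in period I with 64 added (not called) and -0.702 in period II with 1 added (called), and that of FASN in period III was 0.447 with 64 added, 0.37 with quantile normalization and 0.359 without the least correlated arrays, none of them called. Low signal limits PNPLA3 at 1 dpn, where its changes depend on the number added.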
